A study of Homo sapiens with 6 samples.

Results

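The 10 genes described here encode S100 proteins and were taken by symbol from the deposited table of expressed genes: S100A2, S100A4, S100A6, S100A8, S100A9, S100A10, S100A11, S100A13, S100A14 and S100A16. All 10 were among its 32896 genes. Expression was measured by strand-specific RNA-seq of polyadenylated RNA from BHT101, an established line of human anaplastic thyroid carcinoma cells. Cells were transfected by lipid reagent with a control plasmid (n = 3 libraries) or a plasmid carrying SK4 (n = 3 libraries), and all were harvested 48 h later. SK4 is the calcium-activated potassium channel encoded by KCNN4, and the series asked which genes and splicing events lie downstream of it. The cells keep their own KCNN4, the control plasmid's contents are not described beyond that name, and nothing in the labels tells separate cultures from repeat libraries of 1 culture. The treatment label of control replicate 3 spells the line BHT102, while its other labels give BHT101.

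S100 proteins are small calcium-binding proteins built from a pair of EF-hands, helix-loop-helix folds that hold a calcium ion. Most form dimers, and calcium binding exposes a surface that docks target proteins such as annexins, myosin or p53. Some are also secreted and act as ligands of RAGE, the receptor encoded by AGER, or of TLR4. In epithelial tumours S100A4 is known for its link with metastasis, and S100A8 with S100A9 for inflammation.

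KCNN4 was at 8.31, 8.26 and 8.52 FPKM (fragments per kilobase of gene, relative to the library's mapped fragments) in control replicates 1 to 3, and at 184.14, 147.66 and 169.2 FPKM in SK4 replicates 1 to 3. The groups did not overlap, and the fitted fold was 18.8 (95% confidence interval 16.6 to 21.3, limma, adjusted p = 8.83e-07). By exact permutation, two-sided, p was 0.1, the smallest that this design allows. The depth estimated from the values was 29700000 fragments in control replicate 3 and 35900000 to 38500000 in the other libraries. A gene was tested where at least 3 libraries reached 1 FPKM, and was called where its p, adjusted by Benjamini-Hochberg over the 11139 genes tested, was below 0.05. KCNN4 was the only gene called, which is 0.00898% of the tested genes as SK4 higher and 0% as SK4 lower. Control replicate 3 and SK4 replicate 2 stood apart, with 10735 and 10855 genes at 1 FPKM or more against 11069 to 11147 in the others. The epithelial keratin genes KRT8, KRT18 and KRT19 were at 124.14 to 258.53 FPKM and KRT7 at 50.12 to 57 FPKM. The epithelial adhesion genes EPCAM and CDH1 were lower, at 10.39 to 12.68 and 1.59 to 1.97 FPKM. The thyroid follicular markers were near 0 (summed level of 6 genes 0.4 to 0.56 FPKM), TG and TSHR reaching at most 0.01 FPKM.

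S100A8 and S100A9 were the members that differed most between the plasmids, but S100A9 did not pass the test over all genes and S100A8 was too low to be tested. The other 8 members differed by 0.235% to 4.46%. In steady-state level the members spanned 3 orders of magnitude within the same cells, from S100A6 at 1811 FPKM to S100A8 at 0.748 FPKM (means of 6 libraries). Together they made up 1.51% to 1.62% of the FPKM total of a library. The 3 most abundant, S100A6, S100A11 and S100A4, carried 85.5% to 86.1% of that S100 sum.

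**Figure D1:**
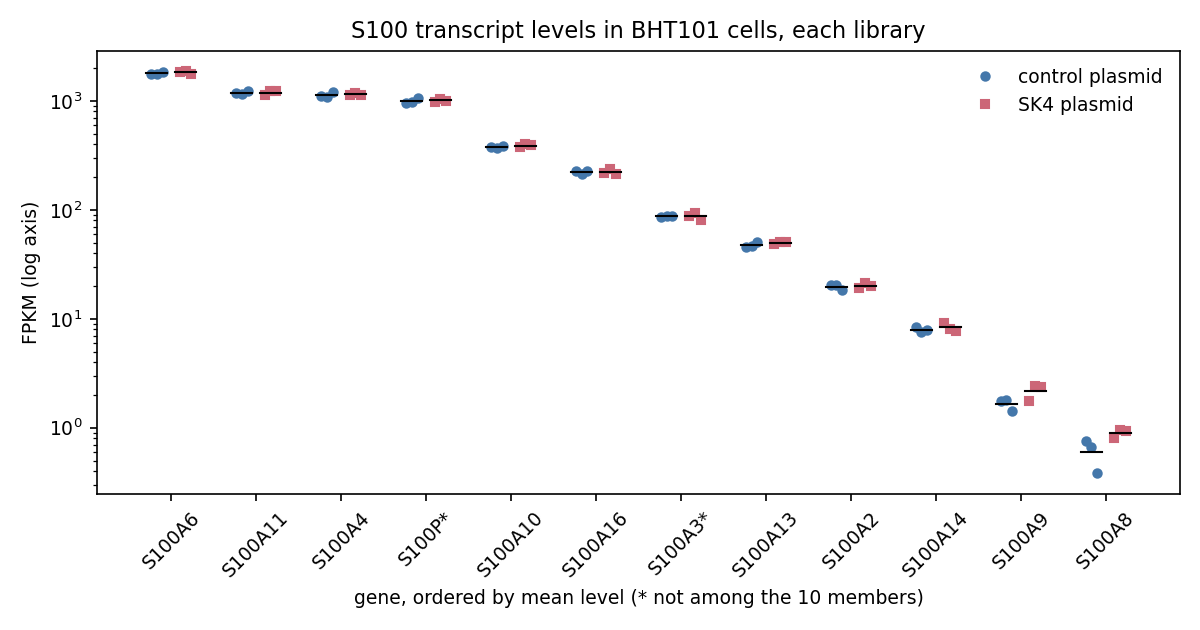
Level of each S100 member and of S100P and S100A3 (asterisks, S100 genes outside the 10) in each library, in FPKM on a log axis; black bars are means of 3 libraries. Levels run from 1811 FPKM for S100A6 down to 0.748 FPKM for S100A8, and control and SK4 ranges overlap for each gene shown except S100A8.

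All members lie on chromosome 1 (GRCh38, GENCODE 29 coordinates). S100A10 (151982915 to 151994390) and S100A11 (152032506 to 152047907) form a pair on the minus strand. The other 8 lie 1310 kb further along, inside a cluster of 14 measured S100 genes that spans 274.2 kb from S100A9 to S100A1. S100A9 (153357854 to 153361027) is on the plus strand, and S100A8 (153390032 to 153391188) on the minus strand, with S100A12 between them. Next come the abundant S100A6 (153534599 to 153536244), S100A4 (153543613 to 153550136) and, less abundant, S100A2 (153561108 to 153567890), all on the minus strand. S100A16 (153606886 to 153613145), S100A14 (153614255 to 153616986) and S100A13 (153618787 to 153631360) close the row on the same strand. Some direct neighbours in this row differed widely in level. S100A5 lies 902 bp from S100A6 and had a mean of 0.818 FPKM, against 1811 FPKM for S100A6. S100A14 lies 1109 bp from S100A16 and had 8.16 FPKM, against 222.3 FPKM.

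**Figure D2:**
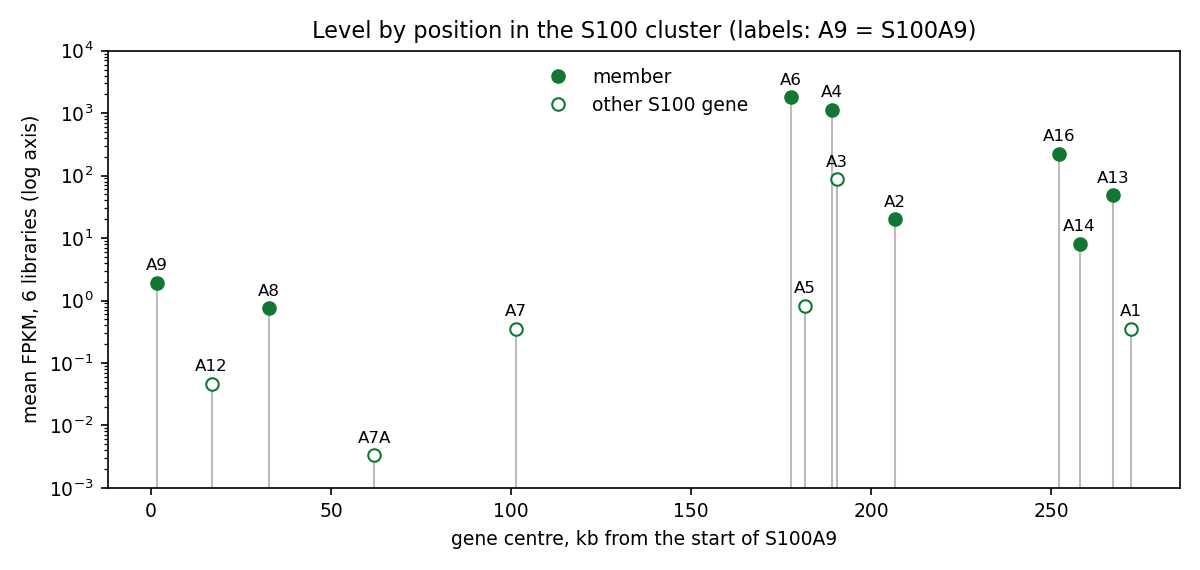
Mean level over 6 libraries (FPKM, log axis) against the position of each gene's centre, in kb from the start of S100A9; filled points are members and open points other S100 genes. S100A9, S100A12, S100A8, S100A7A and S100A7 all lie below 2 FPKM, and S100A6 and S100A4, further along, above 1000 FPKM, with S100A5 between them at 0.818 FPKM.

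The bases before the start sites are shown for a pair of the most abundant members and for the calprotectin pair, because they are the extremes in level. Each run is the 100 bases before the start site, 5′ to 3′ on the gene's own strand, from the RefSeq promoter table (build GRCh38.p14). Capitals mark TATAA where it begins 40 to 20 bases before the start, and GGGCGG or its complement, the GC box.
S100A6 (minus strand, chr1:153535992-153536091): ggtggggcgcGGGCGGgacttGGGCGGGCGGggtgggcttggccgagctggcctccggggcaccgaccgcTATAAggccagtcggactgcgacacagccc
S100A11 (minus strand, chr1:152037005-152037104): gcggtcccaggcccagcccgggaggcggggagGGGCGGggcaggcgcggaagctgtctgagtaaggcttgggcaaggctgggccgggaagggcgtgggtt
S100A9 (plus strand, chr1:153357754-153357853): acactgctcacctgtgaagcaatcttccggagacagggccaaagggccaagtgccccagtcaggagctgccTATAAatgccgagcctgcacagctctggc
S100A8 (minus strand, chr1:153391074-153391173): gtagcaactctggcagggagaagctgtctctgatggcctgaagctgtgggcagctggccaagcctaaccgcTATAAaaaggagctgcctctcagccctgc

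S100A6, S100A9 and S100A8 each hold TATAA at 30, 29 and 29 bases before the start, and S100A11 holds none there. S100A8 has 3 start sites in the table, and the one with TATAA is shown. All 10 members matched the table, with 16 windows of 300 bases (250 before the start and 50 after). TATAA at that distance was found for 6 members: S100A4, S100A6, S100A8, S100A9, S100A13 and S100A14. The share of genes with it in any window was 4.94% over all 27305 genes with a promoter entry. A GC box on either strand was found for 6 members (S100A6, S100A9, S100A10, S100A11, S100A13 and S100A16) and in 48.3% of all genes. The AP-1 motif TGANTCA, on either strand, was found for S100A2 alone, and in 9.37% of all genes. CpG pairs numbered 31, 32 and 22 in the windows of S100A6, S100A10 and S100A11, against 5 for S100A9 and 2 in each window of S100A8, with a median of 14 over all windows. S100A4, at a mean of 1142 FPKM, had 8. S100A16 had 3 and 8 in its windows, and S100A13 had 19, 11 and 12. S100A2 had 5 and 4, and S100A14 had 5. A motif match is a description of these letters, and no binding was measured.

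S100A6, S100A11 and S100A10 are known as partners of annexins. S100A6, or calcyclin, which binds several annexins and the protein encoded by CACYBP, was at 1768.52, 1764.91 and 1846.12 FPKM with the control plasmid and 1827.75, 1885.89 and 1770.34 FPKM with SK4. The groups overlapped, and the fitted fold was 1.02 (95% confidence interval 0.965 to 1.08, limma, adjusted p = 0.99997). It ranked 17 among the 32896 genes of the table by mean FPKM. S100A11, which binds annexin A1, was at 1171.19, 1150.78 and 1241.53 FPKM with the control plasmid and 1126.75, 1221.29 and 1226.41 FPKM with SK4. SK4 replicate 1 held its lowest value and control replicate 3 its highest, and the fold was 1.003 (0.933 to 1.08). S100A10, also called p11, forms a heterotetramer with annexin A2 and, unlike its relatives, does not need calcium to do so. It was at 380.3, 367.65 and 387.34 FPKM with the control plasmid and 377.81, 399.93 and 389.74 FPKM with SK4. SK4 replicate 1 lay inside the control range and the other SK4 libraries above it, and the fold was 1.03 (0.973 to 1.09).

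Ratios of members to their partner transcripts overlapped between the groups. ANXA2, which encodes the partner of S100A10, was at 202.52 to 218.45 FPKM. In FPKM S100A10 exceeded it by 1.74 to 1.91 times across the 6 libraries. FPKM divides by length, and annotated exons were 1543 nt for S100A10 and 8824 nt for ANXA2, so this ratio depends on the lengths used. That ratio was 1.80 ± 0.0989 in the control and 1.82 ± 0.0364 in the SK4 libraries (mean ± SD, n = 3 each), and the groups overlapped. ANXA1, which encodes the partner of S100A11, was at 52.82, 50.99 and 39.59 FPKM with the control plasmid and 53.56, 43.55 and 51.07 FPKM with SK4. The ratio of S100A11 to ANXA1 was highest in control replicate 3 (31.4) and SK4 replicate 2 (28.04), the libraries that stood apart, and 21.04 to 24.01 in the others. The ratio of S100A6 to CACYBP showed the same pair of libraries on top, at 101.8 and 97.3 against 78.5 to 82.9. Annotated exons were 680 and 971 nt for S100A11 and S100A6, and 4561 and 4511 nt for ANXA1 and CACYBP. In control replicate 3 and SK4 replicate 2, tested genes of 2000 to 5000 nt lay at median log2 differences of -0.080 and -0.025 from the rest of their group. Those under 1000 nt lay at 0.042 and 0.0086. The part of length in these ratios was not tested.

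S100A4, called metastasin, binds the heavy chain of non-muscle myosin encoded by MYH9. It was at 1114.2, 1083.37 and 1205.48 FPKM with the control plasmid and 1129.03, 1189.89 and 1130.35 FPKM with SK4. Control replicate 3 held the highest value of all, the groups overlapped, and the fold was 1.01 (95% confidence interval 0.942 to 1.09). MYH9 was at 33.3 ± 1.48 FPKM with the control plasmid and 34.5 ± 0.971 FPKM with SK4 (mean ± SD, n = 3 each). S100A3, a neighbour whose gene lies inside the annotated span of S100A4 on the same strand without exonic overlap, was at 80.74 to 93.86 FPKM. S100A4 exceeded it by 12.4 to 14 times.

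S100A13, needed for the release of FGF1 from stressed cells, was at 45.46, 46.64 and 50.88 FPKM with the control plasmid and 48.43, 50.37 and 50.47 FPKM with SK4. Its fold of 1.04 (95% confidence interval 0.964 to 1.13, limma, adjusted p = 0.99997) came with overlapping groups, since control replicate 3 held the highest value. Without control replicate 3 and SK4 replicate 2 the log2 fold change was 0.10 instead of 0.063 (limma, adjusted p = 0.919). FGF1 itself did not reach the level for testing, at 0.07 to 0.18 FPKM. Exons of S100A13 overlap those of S100A1 on the opposite strand and of AL162258.1 on its own strand, so shared fragments make its value uncertain.

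S100A16, S100A2 and S100A14 had means of 222.3, 19.86 and 8.16 FPKM. S100A16, a widely expressed member, was at 228.09, 211.07 and 226.92 FPKM with the control plasmid and 218.15, 235.89 and 213.8 FPKM with SK4, a fold of 1.002 (95% confidence interval 0.926 to 1.08). S100A2, which is linked to p53 in squamous epithelium, was at 20.27, 20.5 and 18.34 FPKM with the control plasmid and 19.16, 21.1 and 19.81 FPKM with SK4, a fold of 1.02 (0.923 to 1.12). S100A14 was at 8.44, 7.52 and 7.94 FPKM with the control plasmid and 9.18, 8.1 and 7.77 FPKM with SK4, a fold of 1.04 (0.923 to 1.18). In all 3 the groups overlapped, and the coefficient of variation over the 6 libraries was 4.29%, 4.99% and 7.21% for S100A16, S100A2 and S100A14. SK4 replicate 1 held both the highest S100A14 value and, within its group, the lowest S100A2 value.

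**Figure D3:**
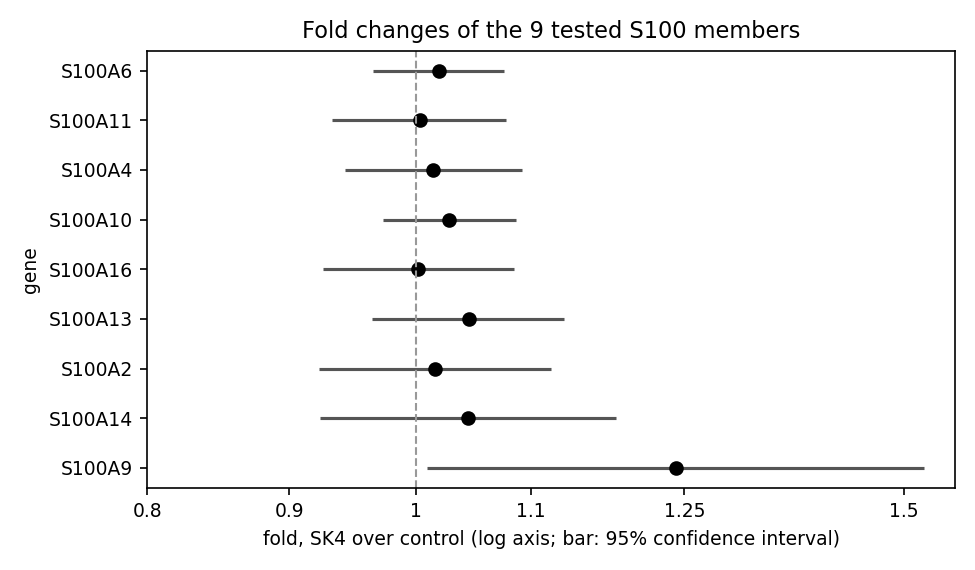
Fitted fold of SK4 over control (points) with 95% confidence intervals (bars) for the 9 members that were tested, on a log axis, ordered by mean level; the dashed line is no difference. The intervals of 8 members lie between 0.923 and 1.18, and that of S100A9 runs from 1.01 to 1.53.

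S100A9 and S100A8 encode the subunits of calprotectin, which neutrophils and monocytes hold in large amounts and which binds zinc and manganese as well as calcium. S100A9 was at 1.75, 1.81 and 1.41 FPKM with the control plasmid and 1.77, 2.42 and 2.36 FPKM with SK4. SK4 replicate 1 lay inside the control range, and the other SK4 libraries above it. The fitted fold was 1.24 (95% confidence interval 1.01 to 1.53), with an unadjusted p of 0.0431 and adjusted p = 0.99997 (limma). An unadjusted p below 0.05 was reached by 1 of the 9 tested members, S100A9, and by 1.65% of all tested genes. By an exact permutation test (two-sided) p was 0.2, where 0.1 is the smallest that 3 against 3 libraries allow.

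S100A8 did not reach 1 FPKM in any library and was therefore not tested. It was at 0.75, 0.67 and 0.38 FPKM with the control plasmid and 0.8, 0.95 and 0.94 FPKM with SK4. Every SK4 value lay above every control value, and the exact two-sided permutation p was 0.1, the smallest possible. Of all 2060 genes with a mean of 0.5 to 1 FPKM, 2.86% were apart in this direction. Among the 9 tested members 0 had groups that did not overlap, against 5.34% of tested genes. In a fit of all 32896 genes without the filter the fold of S100A8 was 1.28 (95% confidence interval 1.001 to 1.64, limma, adjusted p = 0.973). Like that of S100A9, this fold is of FPKM + 0.5, which understates changes at such low levels. The S100A8 means were 0.6 FPKM with the control plasmid and 0.897 FPKM with SK4. Without control replicate 3, the lowest library for S100A8, the fold was 1.15 (0.983 to 1.35, adjusted p = 0.870, limma). Without SK4 replicate 2 as well it was 1.13 (0.934 to 1.37). Leaving out any 1 of the other 5 libraries gave 1.258 (without SK4 replicate 2) to 1.375 (without control replicate 1, 1.05 to 1.8), with adjusted p of 0.931 to 1.0 (limma). For S100A9 the log2 fold change of 0.31 became 0.23 without control replicate 3, 0.25 without SK4 replicate 2, 0.43 without SK4 replicate 1 and 0.16 without control replicate 3 and SK4 replicate 2. None of these passed (limma, adjusted p of 0.948 to 1.0).

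Few fragments lay behind both genes. With the annotated exon lengths, an estimated 11.4 to 36.2 fragments per library came from S100A8 and 24.2 to 52.2 from S100A9, so counting alone gives a coefficient of variation of 16.6% to 29.7% and 13.8% to 20.3%. For S100A6 it gives at most 0.433%. In FPKM S100A9 exceeded S100A8 by 2.21 to 3.71 times in every library, with annotated exons of 577 nt for S100A9 and 1006 nt for S100A8. In the SK4 libraries the ratio was 2.42 ± 0.184, and in the control libraries 2.91 ± 0.713 (mean ± SD, n = 3 each), with overlapping groups. Myeloid markers, summed, overlapped between the groups. Of 10 such genes 9 were in the table, and their summed level was 7.08 to 7.77 FPKM with the control plasmid and 6.79 to 7.33 FPKM with SK4. The leukocyte antigen gene PTPRC was at 0 to 0.01 FPKM and SPI1 at 0 to 0.03 FPKM. CD14, CD68 and ITGAM held most of the sum. CSF3R and FCGR3B, at 0.27 FPKM or less, were lower in each SK4 library than in any control. So were 1.78% of the 19837 genes with means under 0.5 FPKM. These include genes at 0 in a control library, which cannot be lower with SK4 and so reduce that share. The libraries are bulk RNA of an established cell line, so fewer cells holding these transcripts and less RNA per cell cannot be told apart.

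**Figure D4:**
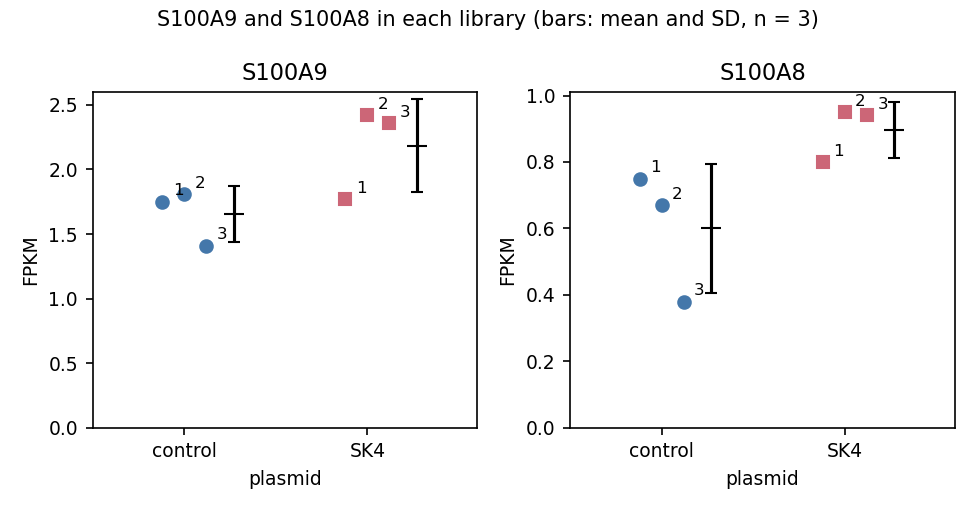
S100A9 and S100A8 in each library, in FPKM on linear axes from 0; numbers are replicates, and bars give the mean and SD of 3 libraries. The S100A8 values of the SK4 group, 0.8 to 0.95 FPKM, all lie above those of the control, 0.38 to 0.75 FPKM, and for S100A9 SK4 replicate 1 lies among the controls.

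The order of the members was the same in all 6 libraries apart from S100A11 and S100A4. S100A6 exceeded S100A11 by 1.52 times with no overlap of their ranges. S100A11 and S100A4 differed by 1.04 times, their ranges overlapped, and S100A11 was the higher in 5 of 6 libraries. S100A4 exceeded S100A10 by 2.98 times, and every further step down, through S100A16, S100A13, S100A2, S100A14, S100A9 and S100A8, was 1.73 to 4.56 times with no overlap. FPKM is scaled to gene length, so these comparisons of level between genes depend on the lengths used. Those lengths are not given in the sources used here.

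Outside the 10, 9 further S100 genes were in the table, and the most abundant was S100P, on chromosome 4 (6693069 to 6697170). It was at 966.3, 977.4 and 1072.9 FPKM with the control plasmid and 986.55, 1046.62 and 999.11 FPKM with SK4, below S100A4 by 1.13 times with no overlap between the ranges of these genes. S100A1, S100A5 and S100A7 were at 0.16 to 1.14 FPKM. S100A12, a further calgranulin of myeloid cells, was at 0 in every control library and at 0.17, 0 and 0.11 FPKM with SK4, an estimated 3.21 fragments at most. S100A7A, S100B and S100G were listed at 0 in 5 of 6 libraries each. S100A7 and S100A7A are near-identical copies, and how shared fragments were counted is not given in the sources used here. S100A3 and S100P were tested and not called.

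Of the 14 S100 partner genes 12 were tested and 0 were called in either direction, with 10 positive fold changes. Their median log2 fold change was 0.027, against 0.028 for the 9 tested members and 0.011 for all tested genes. ANXA5, an annexin of the inner membrane face, had the smallest unadjusted p of the list. It was at 119.41, 123.11 and 114.99 FPKM with the control plasmid and 125.79, 127.67 and 122.11 FPKM with SK4, overlapping by 1 library on each side (limma, adjusted p = 0.99997). AHNAK, a giant scaffold of the S100A10 and annexin A2 complex, was at 7.66 ± 1.18 FPKM with the control plasmid and 7.09 ± 0.492 FPKM with SK4 (mean ± SD, n = 3 each). Of 5 receptor genes only BSG and ALCAM were tested, and 0 were called. BSG, which encodes basigin, a receptor of S100A9, was at 303.5 ± 9.75 and 308.3 ± 9.45 FPKM (mean ± SD, n = 3 each). AGER and TLR4 were below the level for testing, at 0.47 to 0.76 and 0.4 to 0.77 FPKM.

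Of 12 neighbours on chromosome 1, 9 were tested and 0 were called. CHTOP and ILF2, which lie just past S100A1, were at 17.4 ± 0.755 and 140.0 ± 6.64 FPKM with the control plasmid and 17.04 ± 0.359 and 143.3 ± 2.58 FPKM with SK4 (mean ± SD, n = 3 each). The listed non-S100 genes of the epidermal differentiation complex, such as those of the cornified envelope, were nearly silent. Of 15 such genes 11 were in the table and 0 reached the level for testing. SPRR1B, a cornified envelope precursor, was at 0.18, 0.17 and 0.05 FPKM with the control plasmid and 0.49, 0.7 and 0.42 FPKM with SK4. It was the 1 gene of the 11 whose groups did not overlap, from an estimated 0.921 to 16 fragments, and of the 4777 genes at 0.1 to 0.5 FPKM 4.1% were apart in the same direction. Of 6 squamous markers 1 was tested, SFN, and 0 were called. SFN was abundant, at 112.57 to 120.84 FPKM, with overlapping groups. KRT5, KRT6A, TP63, DSG3 and the squamous keratin gene KRT14 were under the filter. KRT14 was at 0.94, 0.89 and 0.51 FPKM with the control plasmid and 0.85, 1.2 and 1.1 FPKM with SK4, so its groups overlapped.

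All 9 tested members had a fold change above 1, as did 57.9% of the tested genes, but S100A11 and S100A16 fell below 1 with median ratio scaling and S100A11 with quantile normalization, and S100A2, S100A4 and S100A14 did with library weights or a library left out. The sum of the 10 members was 4739, 4655 and 4986 FPKM with the control plasmid and 4759, 5016 and 4812 FPKM with SK4. The largest sums were in SK4 replicate 2 and control replicate 3, the libraries that stood apart, and the groups overlapped.

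The same libraries held many of the extreme values within the groups. Control replicate 3 held the highest control value for 5 of the 10 members, against 21.5% of tested genes. Those 5 were S100A4, S100A6, S100A10, S100A11 and S100A13. It held the lowest control value for S100A2, S100A8 and S100A9. SK4 replicate 2 held the highest SK4 value for 7 of the 10, against 29.1% of tested genes. The annotated exons of the members, merged over all annotated transcripts of a gene, were 577 to 2216 nt, against a median of 4251 nt for tested genes. These are not lengths of single transcripts. Over the 4530 tested genes of 5000 nt or more, control replicate 3 lay at a median log2 difference of -0.16 from the other controls, and SK4 replicate 2 at -0.068 from the other SK4 libraries. Over the 977 genes under 1000 nt the differences were 0.042 and 0.0086. Among the 1825 tested genes within the members' range of length, control replicate 3 was the highest control for 36.5% and SK4 replicate 2 the highest SK4 library for 36.7%. The part of length in the members' spread was not tested.

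**Figure D5:**
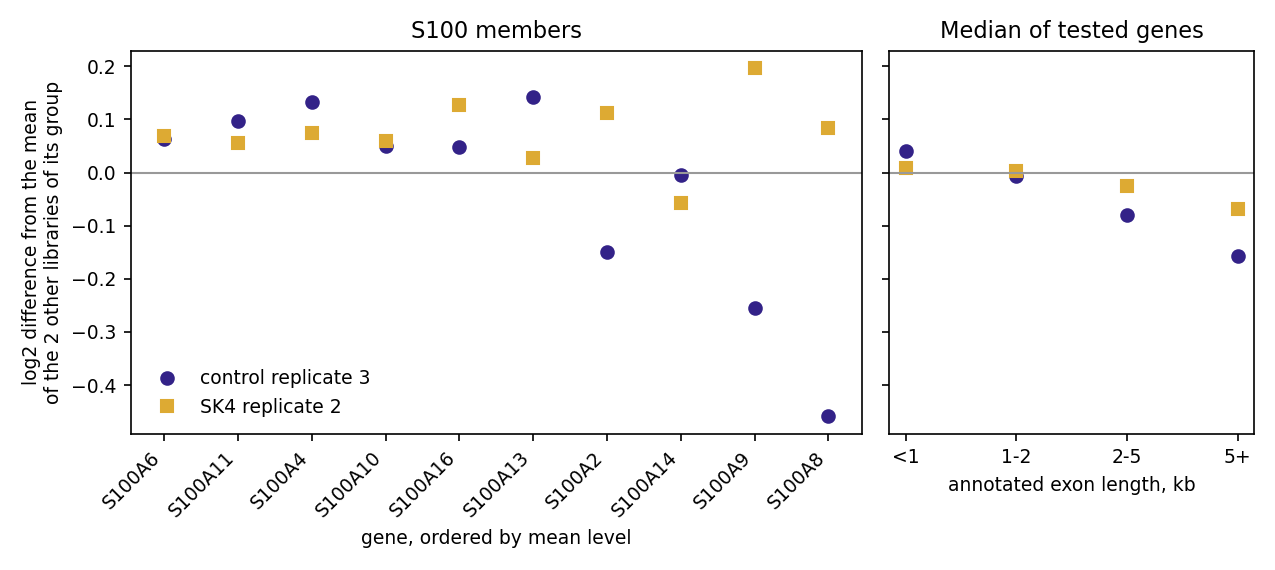
Log2 difference of control replicate 3 (circles) and SK4 replicate 2 (squares) from the mean of the other libraries of their group, for the 10 members (left) and as medians of tested genes by annotated exon length in kb (right). For the abundant members both libraries lie above 0, as for S100A4 at 0.13 and 0.075; S100A8 and S100A9 lie lowest in control replicate 3, at -0.46 and -0.26.

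The genes whose pattern over the 6 libraries was most like that of S100A6 were UBL7, SUMF2 and AKT1S1. Their Pearson r with S100A6 on the log2 scale was 0.98 each, given as a description, since they were picked from 11127 genes and share libraries and depth with S100A6. In all 134 genes had an r above 0.9. SUMF2, for example, was at 52.87, 53.43 and 55.36 FPKM with the control plasmid and 55.13, 57.36 and 53.06 FPKM with SK4, highest like S100A6 in SK4 replicate 2.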

How the data were processed

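The members and lists were chosen with earlier results of these data known. The authors deposited 1 table of FPKM values, rounded to 2 decimals, with 1 column a library; HISAT2 and GRCh38 are named per the submitters' processing notes. Versions, counting tool and its strand setting are not given in the sources used here. FPKM corrects for depth and length, not for uneven recovery of long transcripts. Groups follow the titles. Values were taken as log2(FPKM + 0.5), which understates changes of low genes, and compared with limma 3.58.1 in R 4.3.3 (two-sided, trended and robust prior, group only), after a filter of 1 FPKM in at least 3 libraries. The code was tested on simulated data. p-values measure the spread between these libraries, which may be technical. Named genes are all members, KCNN4 and fixed lists of relatives, partners, receptors, neighbours and markers; likeness used the most abundant member. FGF1, FCGR3B, SPRR1B, KRT14 and other genes under the filter were named after their values were seen.

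Depth was estimated from 561 single-exon genes under 160 nt, whose low values were whole multiples of 1 fragment within 0.1 for 99.4% to 99.5% of values of up to 5 fragments; estimates cover counting error only. GENCODE 29 matched 31742 of 32896 identifiers without version; the deposited versions of most S100 genes are later, so lengths are approximate. Alternatives covered pseudocount, filter, scaling, weights, prior, threshold, replicate number and left-out libraries; those of S100A8 without a filter were added after seeing the data. 1 marker gene is not reported here. Splicing was not analysed here.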

Additional observations from a re-analysis of the deposited data

How the results depend on the processing

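Over the 18 alternatives, 0 of the members and 0 of the S100 partner genes were called, and KCNN4 stayed called. Leaving out control replicate 3 and SK4 replicate 2 gave 3 genes called higher and 1 lower, none of them a member. S100A6, S100A9, S100A10 and S100A13 kept a positive log2 fold change in every alternative that tested them, S100A9 between 0.16 and 0.43. The same-numbered libraries had correlations of deviations of 0.31, -0.41 and -0.15. Deviations from a mean of 3 libraries are tied to each other, so these values cannot show whether the numbers pair the libraries. With the replicate block KCNN4 was the 1 gene called higher (18.8-fold) and the fold changes were as before. The members near 0 changed sign in some fits without being called, and the cause was not tested. With median ratio scaling S100A11 was at -0.0088 and S100A16 at -0.0094, and with quantile normalization S100A11 was at -0.015. With library weights S100A16 was at -0.026 and S100A2 at -0.030. Without control replicate 3 and SK4 replicate 2 S100A16 was at -0.023 and S100A2 at -0.064. Leaving out 1 library gave -0.018 to 0.044 for S100A11, -0.0043 to 0.11 for S100A14, -0.039 to 0.032 for S100A16, -0.026 to 0.054 for S100A2 and -0.012 to 0.065 for S100A4. The estimated 11.4 to 36.2 fragments behind S100A8 and 24.2 to 52.2 behind S100A9 limit what could be detected for this pair.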
